A study of Mus musculus with 10 samples.

Results

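The MHC class II presentation genes form a group of 8 genes among the 56750 features counted in mouse sarcomas. The members were chosen by name for their place in the class II pathway, and no measured value entered the rule. Earlier results of these data were, however, known when they were chosen. They are the peptide-binding chains H2-Aa, H2-Ab1 and H2-Eb1, the invariant chain Cd74, the transactivator Ciita, the peptide editors H2-DMa and H2-DMb1, and the editor subunit H2-Oa. All 8 had counts in every tumor and all 8 passed the filter on low counts. RNA was compared between 3 tumors of dFLEx CDS mice and 2 tumors of KP mice. The dFLEx mice were labelled dFLEx CDS +/-. They carry at Rosa26 an HA-tagged CIC::DUX4 construct behind the ubiquitous CAG promoter, and the construct is put in frame only after recombination by both Cre and FLP. Their tumors were induced by electroporating plasmids for both recombinases into the hind limb muscle. The KP mice carried p53fl/fl, an allele that Cre deletes, together with a further Cre-dependent allele. The dFLEx mice were 6 to 12 weeks old at electroporation. How the KP tumors were induced, their ages and the strain are not given in the sources used here. The dFLEx model is immunocompetent, and each sample was whole tumor, not sorted cells.

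MHC class II molecules display peptides from endosomes to CD4 T cells. An alpha and a beta chain pair in the endoplasmic reticulum around the invariant chain, which blocks the groove and steers the complex to endosomes. Cathepsins trim the invariant chain to a short peptide called CLIP, H2-DM exchanges CLIP for other peptides, and H2-O restrains H2-DM. Dendritic cells, B cells and macrophages hold class II constitutively or after activation, and many other cells acquire it when interferon gamma induces Ciita, which works from the X and Y boxes of class II promoters without binding DNA itself.

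Because Ciita acts through these shared boxes, the promoters of the members were read from GRCm39, from 250 bases before to 50 bases after the start of each canonical transcript in GENCODE M39. The Y box was searched on both strands as TGATTGG, the inverted CCAAT box. It stood in the promoters of 5 of the 8 members and in 1993 of 21630 promoters of protein-coding genes (9.21%). In all 5 it began upstream of the start in the same orientation, with its first base at position -50 in H2-Aa, -29 in H2-Ab1, -33 in H2-Eb1, -41 in H2-DMa and -6 in H2-Oa. The following 60-base stretches are shown because they hold this shared element. Each is written 5′ to 3′ on the strand of its gene, with the Y box in capitals and, where present, the letters GATGATG also in capitals.
H2-Aa, minus strand, chr17:34506833-34506892: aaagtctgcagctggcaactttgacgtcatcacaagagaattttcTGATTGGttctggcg
H2-Ab1, plus strand, chr17:34482109-34482168: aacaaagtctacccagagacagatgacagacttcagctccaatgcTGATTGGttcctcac
H2-Eb1, plus strand, chr17:34524735-34524794: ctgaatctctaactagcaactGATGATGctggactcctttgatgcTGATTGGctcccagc
H2-DMa, plus strand, chr17:34354474-34354533: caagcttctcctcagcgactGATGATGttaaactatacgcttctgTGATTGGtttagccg
H2-Oa, plus strand, chr17:34311263-34311322: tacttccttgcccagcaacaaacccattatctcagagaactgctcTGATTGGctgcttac

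The letters TGATTGG were not found in the windows of Cd74, Ciita and H2-DMb1. The X box was searched as CCTNGNNACNNNTG and was found in 2 of the 8 members, Cd74 and H2-DMb1, and in 1.11% of all promoters. The letters GATGATG, chosen after the sequences were seen, were found in 3 members (H2-Eb1, H2-DMa and H2-DMb1) and in 3.22% of all promoters. In H2-DMb1 they also lay after the start, at position 32. No member held both the X box and the Y box letters, and a match is a run of letters in this window, not a measured binding site.

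The tumors were covered by 20503474 to 82138251 counts each. RNA of a tumor was split into duplicate libraries, which were summed, and 1 of the 2 libraries of KP tumor 3802 was not analysed here. The transgene feature CIC_DUX4 held between 4238 and 33600 counts in the dFLEx tumors, 0 in KP tumor 3800 and 6 in KP tumor 3802. Over all genes, 45 of 24743 passed an adjusted p of 0.05 in edgeR's quasi-likelihood test (0.182%). Tumor 3802 had the fewest counts and the most detected features (36904, against 24280 to 31768 in the other libraries). Its values are given separately throughout.

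The 3 peptide-binding chains and the invariant chain were lower in each of the 3 dFLEx tumors than in either KP tumor. Levels are given in CPM, that is, counts divided by library totals that were adjusted with TMM (trimmed mean of M values) factors. H2-Aa, the I-A alpha chain, was at 119 CPM in dFLEx tumor 170019, 172 in 170024 and 88.2 in 170025, against 221 in KP tumor 3800 and 311 in 3802. Its means were 126 ± 42.7 CPM (SD, n = 3) and 266 ± 63.4 (SD, n = 2), a 2.11-fold higher mean in KP. The groups did not overlap, but the log2 fold change of -1.07 (SE 0.55) did not pass edgeR's test (adjusted p = 0.601).

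H2-Ab1, the I-A beta chain that pairs with H2-Aa, was at 293, 296 and 139 CPM in 170019, 170024 and 170025, and at 404 and 840 CPM in 3800 and 3802. The dFLEx tumor 170025 was the lowest and KP tumor 3802 was more than 2-fold above the other KP tumor. The log2 fold change was -1.36 (SE 0.61, edgeR adjusted p = 0.495). H2-Eb1, the beta chain of I-E, followed the same order, with 175, 233 and 113 CPM in the dFLEx tumors and 334 and 488 CPM in the KP tumors. The groups of H2-Eb1 did not overlap, and its log2 fold change was -1.24 (SE 0.56, edgeR adjusted p = 0.501).

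Cd74, the invariant chain, was at 246 CPM in 170019, 430 in 170024 and 186 in 170025, against 455 in 3800 and 936 in 3802. The highest dFLEx tumor, 170024, lay only just below the lowest KP tumor. The log2 fold change of Cd74 was -1.28 (SE 0.61), again short of the threshold (edgeR adjusted p = 0.547).

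**Figure D1:**
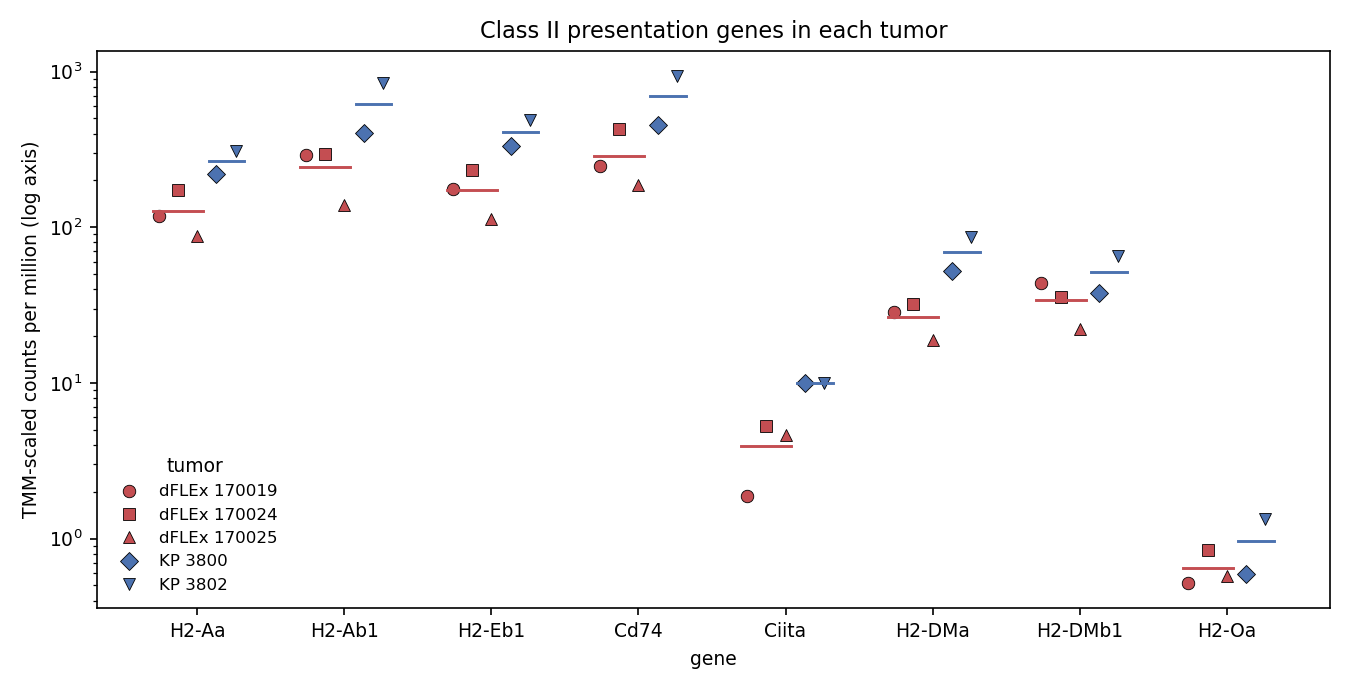
Level of each of the 8 genes in each tumor (TMM-scaled CPM, log axis), with 1 point per tumor, dFLEx in red and KP in blue, and horizontal lines for the group means. In 6 genes every dFLEx point lies below both KP points, whereas the groups overlap in H2-DMb1 and H2-Oa.

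Ciita, the non-DNA-binding coactivator on which class II transcription depends, was a low-abundance transcript. It was at 1.87 CPM in 170019, 5.29 in 170024 and 4.65 in 170025, and at 9.93 and 10.0 CPM in the KP tumors. The KP tumors were nearly equal, the dFLEx tumors were all lower, and 170019 was the lowest at 75 counts. The means were 3.93 ± 1.82 CPM (SD, n = 3) and 9.96 ± 0.0482 (SD, n = 2), with a log2 fold change of -1.34 (SE 0.66, edgeR adjusted p = 0.573). The order of the dFLEx tumors was not that of the chains, since 170019 was the lowest in Ciita and 170025 the lowest in H2-Ab1 and Cd74.

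The chains of H2-DM, the editor that exchanges CLIP for peptide, differed from each other. H2-DMa, the alpha chain, was at 28.6, 32 and 19.0 CPM in the dFLEx tumors and at 52.1 and 86.2 CPM in the KP tumors. All 3 dFLEx tumors were lower, and H2-DMa had the lowest p of the 8 members, with a log2 fold change of -1.38 (SE 0.57, edgeR unadjusted p = 0.0419, adjusted p = 0.441). H2-DMb1, a beta chain, was at 43.8, 35.8 and 22.2 CPM in the dFLEx tumors and at 37.7 and 65.1 CPM in the KP tumors. Its groups overlapped, since 170019 exceeded KP tumor 3800, and the log2 fold change was -0.60 (SE 0.59, edgeR adjusted p = 0.874).

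H2-Oa, the alpha chain of H2-O, was close to the limit of measurement. It had 21, 49 and 46 counts in the dFLEx tumors and 44 and 33 counts in the KP tumors, or 0.522, 0.85, 0.579, 0.591 and 1.34 CPM. The Wilson 95% interval of 170019 was 0.341 to 0.798 CPM and that of 3800 was 0.44 to 0.793. These intervals leave out the spread between tumors. They are too narrow even for counting error, since both mates of a pair were counted. The dFLEx tumors and 3800 overlapped, and a difference was not detectable at this depth (log2 fold change -0.56, SE 1.0, edgeR adjusted p = 0.934). Without tumor 3802 the log2 fold change was 0.16, with the opposite sign.

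For 6 of the 8 members the highest dFLEx tumor lay below the lowest KP tumor, against 11.7% of all tested genes. None of the 8 passed the adjusted threshold in edgeR on tumors, whereas 1 (H2-DMa) had an unadjusted p under 0.05, as did 10.6% of all tested genes. DESeq2 on the same tumor sums and limma-voom with tumor as a random effect also called 0 of the 8, against 6.25% and 2.78% of all genes tested in those fits. With the 9 libraries taken as independent samples, which counts duplicates of 1 tumor as if they were separate tumors, edgeR called H2-Eb1, Ciita and H2-DMa lower, against 8.88% of all genes lower in that fit. The median log2 fold change of the members was -1.26, beside -0.18 for all tested genes. Leaving out KP tumor 3802 moved the members' median to -0.75 and that of all genes to 0.34, so the gap between them was -1.08 with that tumor and -1.09 without it. The 8 genes were measured in the same 5 tumors and do not count as 8 independent results. In whole tumor RNA, fewer cells that hold class II and less RNA per cell cannot be told apart.

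All members but Cd74 and Ciita lie in the class II region of chromosome 17 (GRCm39), from H2-Oa at 34311314-34314208, through H2-DMa (34338515-34358075), H2-DMb1 (34372046-34379204), H2-Ab1 (34476663-34488393) and H2-Aa (34501718-34506797), to H2-Eb1 at 34524841-34535648. Ciita lies on chromosome 16 at 10297923-10346282 and Cd74 on chromosome 18 at 60936920-60945724. Values count reads over all exons of a gene, and reads over 2 genes were not counted. Antisense neighbours overlapped 10.4% of the exonic bases of H2-DMa (Brd2), 22.8% of H2-Oa (BC051537) and 3.45% of Ciita (Dexi), and reads there are lost to these genes. H2-DMb1 and its neighbour H2-DMb2 are near-identical in places, with 27.2% of the 50-base words of the H2-DMb1 transcript also found in H2-DMb2. Over all other genes, 31.7% of the H2-DMb1 words were shared. Reads with several alignments were left out, so reads that align equally to such shared stretches are lost to these genes. H2-Aa, H2-Ab1 and Cd74 shared no such word with another gene.

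Duplicate libraries of 1 tumor gave similar levels for the abundant members. Over H2-Aa, H2-Ab1, H2-Eb1, Cd74, H2-DMa and H2-DMb1, duplicates differed by at most 23.7% of their mean, the largest gap being H2-DMa in 170019. For Cd74 the largest difference was 4.65%. H2-Oa differed by as much as 87.5% between the duplicates of 170024, at 37 and 12 counts. The spread between tumors of a group was larger than this for the abundant chains: H2-Ab1 in 170024 was more than 2-fold the level in 170025.

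Per kilobase of merged exon, Cd74 was the highest member in each of the 5 tumors, from 111 CPM per kilobase in 170025 to 557 in 3802. H2-Ab1 and H2-Eb1 came next and changed places between tumors. H2-Ab1 ranged from 54.2 to 327 CPM per kilobase and H2-Eb1 from 57.9 to 251, so the order of these 2 neighbours did not hold beyond the spread between tumors. H2-Aa followed at 23.2 to 81.9 CPM per kilobase, then H2-DMb1 at 13.2 to 38.7 and H2-DMa at 5.52 to 25.0. With these lengths this order held in every tumor. Ciita and H2-Oa were the lowest, at 0.196 to 1.05 and 0.371 to 0.953 CPM per kilobase. Their order differed between tumors, with Ciita below H2-Oa in 170019 and 170024 and above it in the other tumors. Lengths are those of the merged exons in the deposited table, which can exceed the main transcript.

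Ratios of 2 members within a tumor do not depend on scaling between libraries, and were used to ask whether the members kept the same proportions. The ratio of H2-Eb1 to H2-Ab1, per kilobase, was 0.79, 1.04 and 1.07 in the dFLEx tumors and 1.09 and 0.767 in the KP tumors. The ratio of Cd74 to H2-Ab1 was 1.28, 2.22 and 2.04 in dFLEx and 1.72 and 1.70 in KP. Both overlapped between groups, and their highest value was 1.42 and 1.73 times their lowest. H2-Aa to H2-Ab1 also overlapped, at 0.273, 0.394 and 0.429 in dFLEx and 0.371 and 0.25 in KP.

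The ratio of H2-DMa to H2-DMb1 separated the groups. It was 0.318, 0.436 and 0.419 in the dFLEx tumors and 0.673 and 0.645 in the KP tumors, with a log2 difference of -0.77. Because the groups did not overlap, leaving out a tumor cannot turn the direction, and the difference then ran from -0.85 to -0.63. Both genes carry the counting limits given above. H2-Oa to H2-DMa stood the other way, at 0.0448, 0.0651 and 0.0746 in dFLEx and 0.0278 and 0.0381 in KP, a log2 difference of 0.89 that rests on the low counts of H2-Oa. H2-DMa to H2-Ab1 overlapped, with a log2 difference of -0.03. With 3 tumors against 2, the exact two-sided permutation test cannot give a p below 0.2, which both separated ratios reached, and over the 11 ratios tested no adjusted p was below 0.88.

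**Figure D2:**
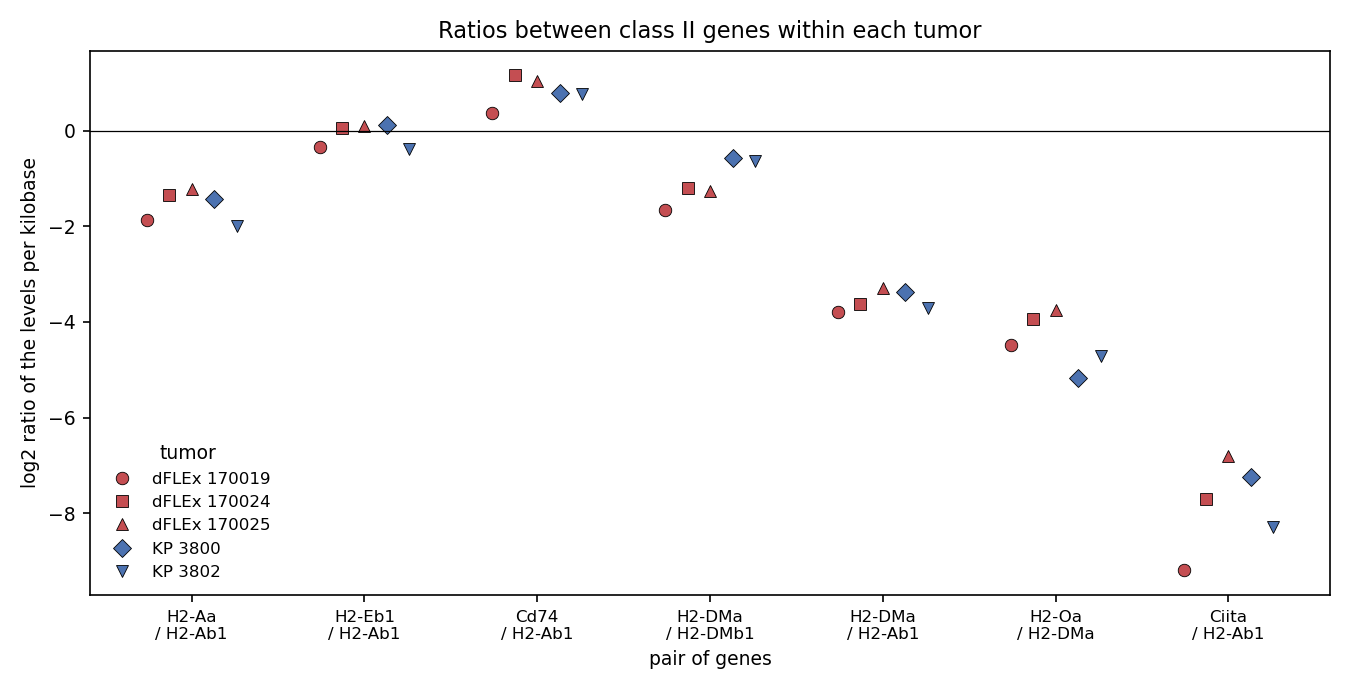
Log2 ratio of the levels per kilobase of 2 class II genes within each tumor, for 7 pairs, with 1 point per tumor, dFLEx in red and KP in blue. The groups separate in H2-DMa to H2-DMb1 and in H2-Oa to H2-DMa and overlap in the other 5 pairs, and Ciita to H2-Ab1 has the widest spread.

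Of the 7 pairs of members, Ciita relative to H2-Ab1 varied most. The ratio per kilobase was 0.00171, 0.00482 and 0.009 in the dFLEx tumors and 0.00662 and 0.0032 in the KP tumors, a 5.25-fold range. The tumor with the least Ciita per H2-Ab1, 170019, and the tumor with the most, 170025, were both dFLEx, and the log2 difference between groups was -0.13 (exact permutation p = 1.0, adjusted p = 1.0).

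The other class II genes were few and low. H2-DMb2, the second H2-DM beta chain, was at 3.58, 3.64 and 2.85 CPM in the dFLEx tumors and at 10.4 and 16.1 CPM in the KP tumors (log2 fold change -1.98, SE 0.59, edgeR unadjusted p = 0.0101, adjusted p = 0.255). H2-Ob, the beta chain of H2-O, was at 0.697, 1.35 and 0.668 CPM against 2.07 and 5.32 (log2 fold change -2.02, SE 0.80, edgeR adjusted p = 0.421). H2-Eb2, a second E beta gene, was at 0.199, 0.0694 and 0.139 CPM against 0.725 and 0.65. All 3 were lower in every dFLEx tumor (11.7% of all genes). In edgeR 2 of the 3 had an unadjusted p under 0.05 (10.6% of all genes), and 0 passed the adjusted threshold there, in DESeq2 or in limma-voom. H2-Ea, the I-E alpha chain that several inbred strains lack, had 0, 5 and 1 counts in the dFLEx tumors, where the limit of a count of 0 in 170019 is 0.0746 CPM, and 6 and 22 counts in the KP tumors. It was too low to be tested. The Y box letters also stood in the promoters of H2-DMb2, H2-Ob and H2-Eb2 and were not found in that of H2-Ea.

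Interferon gamma reaches Ciita through its receptor, JAK1 and JAK2, and IRF1. Of the 6 tested genes of this route, 5 had a log2 fold change below 0 and the median was -0.26, near that of all genes (-0.18). Without KP tumor 3800 the route's median was 0.31, beside -0.07 for all genes. In edgeR 1 of the 6 had an unadjusted p under 0.05 (10.6% of all genes), and 0 passed the adjusted threshold there, in DESeq2 or in limma-voom. Irf1, a factor that acts at the Ciita promoter, was at 22.9, 27.2 and 23.8 CPM in the dFLEx tumors and at 67.8 and 55.2 CPM in the KP tumors, with no overlap (log2 fold change -1.32, SE 0.53, edgeR unadjusted p = 0.0372, adjusted p = 0.422). Ifngr2, the signalling chain of the receptor, stood higher in every dFLEx tumor, at 164, 137 and 151 CPM against 78.1 and 101, where 13.7% of all genes did so. Ifng itself was at or below 0.225 CPM in every tumor and was not tested.

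The genes that interferon gamma induces were lower in every dFLEx tumor in 8 of 8 cases, against 11.7% of all tested genes, with a median log2 fold change of -2.08 beside -0.18 for all genes. In edgeR on tumor sums 6 of the 8 had an unadjusted p under 0.05 (10.6% of all genes) and 0 passed the adjusted threshold. DESeq2 on the same sums called 4 (Cxcl9, Cxcl10, Gbp2 and Gbp3), against 6.25% of all genes tested in that fit. With limma-voom 2 were called (Cxcl10 and Gbp2), against 2.78% of all genes tested in that fit. Cxcl10, a chemokine for T cells, was at 1.97, 5.12 and 2.81 CPM in the dFLEx tumors and at 31.2 and 40.5 CPM in the KP tumors, with a log2 fold change of -3.44 (SE 0.66, edgeR unadjusted p = 0.000835, adjusted p = 0.103). Cxcl9, a related chemokine, was at 1.39, 4.06 and 2.7 CPM against 11.2 and 15 (log2 fold change -2.27, edgeR adjusted p = 0.253). Gbp2, a guanylate-binding protein, was at 2.89, 5.62 and 7.07 CPM against 49.7 and 20.6 (log2 fold change -2.76, edgeR adjusted p = 0.18). The 5 others, Gbp3, Gbp5, Gbp7, Iigp1 and Ido1, had the same order of groups, and Ido1 had the smallest difference at a log2 fold change of -1.33. Leaving out a KP tumor cannot lower this count of 8, so it is no check on it. Whether the class II genes and these genes were lower for the same reason was not tested.

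**Figure D3:**
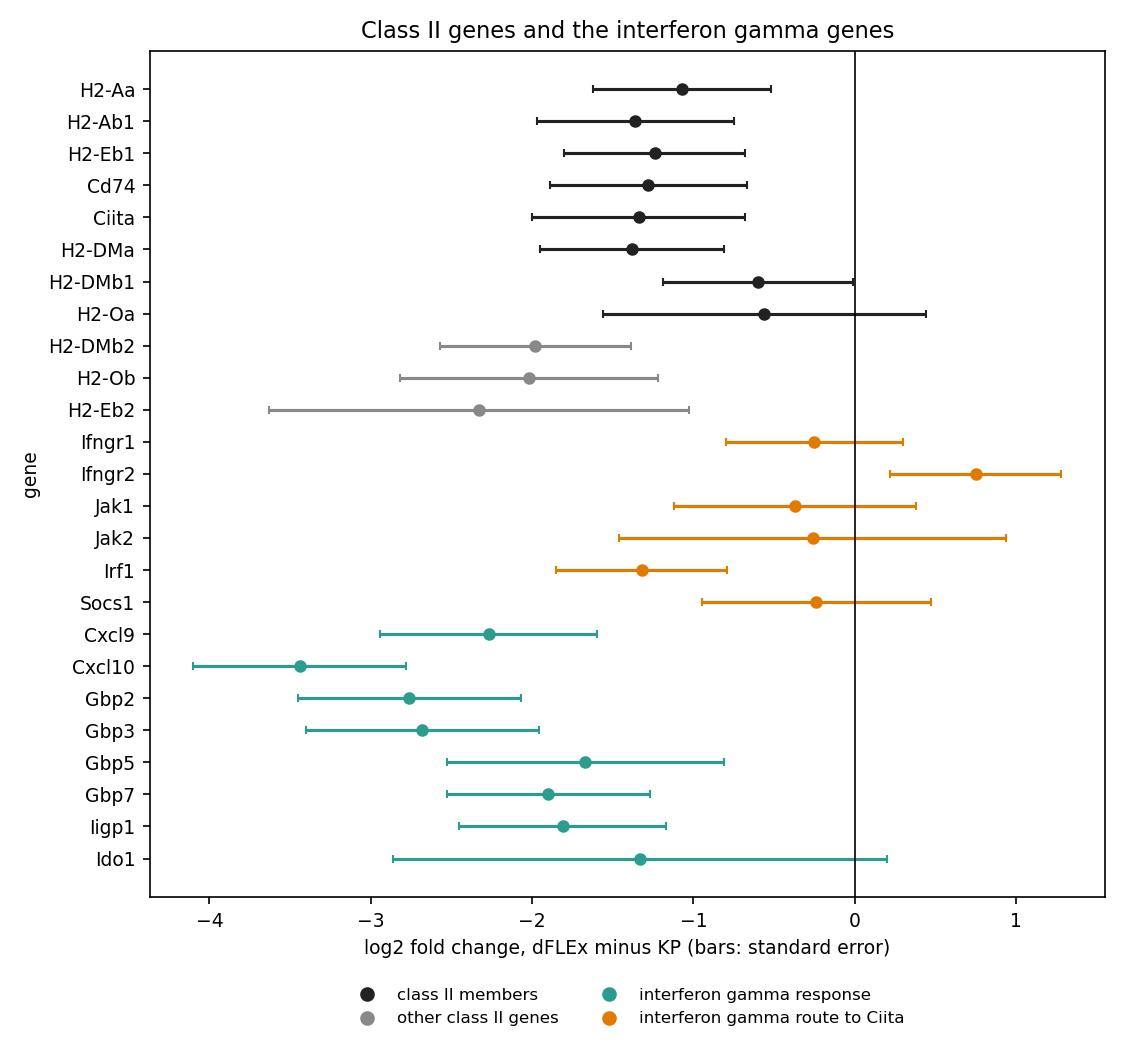
Log2 fold change of dFLEx against KP (points) with its standard error (bars) for the tested class II genes, the genes of the interferon gamma route to Ciita and the genes that interferon gamma induces. The 8 members lie between -1.38 and -0.56, the induced genes between -3.44 and -1.33, and Ifngr2 is the one gene above 0.

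The factors that hold Ciita at class II promoters differed in direction, and the KP tumors differed from each other in these genes. Of Rfx5, Rfxap, Rfxank, Nfya, Nfyb, Nfyc and Creb1, 3 had a log2 fold change below 0 and 4 above, with a median of 0.08, and 0 had an unadjusted p under 0.05 in edgeR or were called by DESeq2 or limma-voom. The median was 1.31 without KP tumor 3800 and -0.35 without 3802, beside -0.07 and 0.34 for all genes. Rfx5, which binds the X box, ranged from 1.14 CPM in 3802 to 15 in 170025, and 3800 stood beside 170025 at 14.7. Nfyb, a subunit of the CCAAT-binding factor that binds the Y box, stood higher in every dFLEx tumor, at 27.8, 31.6 and 46.9 CPM against 16.9 and 9.31 (log2 fold change 1.43, SE 0.63, edgeR adjusted p = 0.485). Nfya had the lowest value of the list, a log2 fold change of -0.38 with overlapping groups.

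Among 9 genes of endosomal processing, 3 cathepsins were lower in every dFLEx tumor, against 11.7% of all genes. Ctss, cathepsin S, which makes the last cuts in the invariant chain of most antigen-presenting cells, was at 73.5, 124 and 93.3 CPM against 252 and 282 (log2 fold change -1.46, SE 0.53, edgeR unadjusted p = 0.0239, adjusted p = 0.362). Ctsl, cathepsin L, which does so in thymic epithelium, was at 442, 334 and 228 CPM against 1137.5 and 1114 (log2 fold change -1.75, SE 0.53, edgeR adjusted p = 0.259). Ctsb, cathepsin B, was at 746, 709 and 888 CPM against 1118 and 1031. The list as a whole had a median of -0.47, beside -0.18 for all tested genes. Without KP tumor 3802 the list median was -0.10, beside 0.34 for all genes. Cst3, the cathepsin inhibitor cystatin C, was at 0.04 with overlapping groups. In edgeR 2 of the 9 had an unadjusted p under 0.05 (10.6% of all genes) and 0 passed the adjusted threshold. DESeq2 called 0, and limma-voom called 2 (Ctss and Ctsl), against 2.78% of all genes tested in that fit.

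MARCH1 removes class II from the surface of resting cells and CD83 opposes it. Marchf1 was at 1.57, 2.69 and 5.13 CPM in the dFLEx tumors and 7.31 and 6.01 CPM in the KP tumors (log2 fold change -1.09, SE 0.70, edgeR adjusted p = 0.742), while Marchf8 and Cd83 overlapped. Among 6 costimulatory genes, Cd86 and Cd274 were lower in every dFLEx tumor (11.7% of all genes) and Cd40 was higher (13.7% of all genes). Cd86, a ligand of CD28, was at 1.97, 3.21 and 5.27 CPM against 10.7 in both KP tumors (log2 fold change -1.62, edgeR adjusted p = 0.424). Cd274, which encodes PD-L1, was at 0.896, 0.659 and 1.85 CPM against 5.35 and 2.84 (log2 fold change -1.85, edgeR adjusted p = 0.459). Cd40, which receives help from CD4 T cells, was at 140, 71.7 and 55.7 CPM against 11 and 22.3, a log2 fold change of 2.42 (SE 0.72, edgeR unadjusted p = 0.01, adjusted p = 0.254). It was the 1 gene of this list that DESeq2 and limma-voom called, against 6.25% and 2.78% of all genes tested in those fits. Pdcd1lg2 had the lowest value of this list at -2.7, on at most 1.1 CPM. The receptors that bind class II, Cd4 and Lag3, had log2 fold changes of -0.13 and -1.15 with overlapping groups.

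Markers of leukocytes and macrophages, cells that can carry class II, also summed to less in the dFLEx tumors. The summed level of the 8 members was 908, 1205 and 572 CPM in the dFLEx tumors and 1514 and 2738 CPM in the KP tumors. The 12 macrophage markers summed to 789 to 1042 CPM in dFLEx and to 1743 and 4921 CPM in KP, and 9 of the 12 were lower in every dFLEx tumor, where 11.7% of all genes were. C1qa, a complement subunit made by macrophages, dominated that sum in 3802 at 3099 CPM, whereas Adgre1, which encodes F4/80, was at 12.2, 17.5 and 23.2 CPM against 62.6 and 61.1. Cd68, Mrc1 and Tyrobp overlapped between the groups. Cd68, at 44.2, 49.4 and 54.9 CPM against 50.2 and 33.6, was the 1 macrophage marker with a log2 fold change above 0 (0.24). The 5 leukocyte genes summed to 216 to 293 CPM in dFLEx and to 376 and 1236 CPM in KP, with 3 of 5 lower in every dFLEx tumor (11.7% of all genes), among them Ptprc at 11.4, 14.2 and 22.9 CPM against 53.3 and 70.7.

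The 9 dendritic cell markers summed to 33.8 to 42.5 CPM in dFLEx and 46.3 and 63.6 CPM in KP. Of these, 5 were lower in every dFLEx tumor (11.7% of all genes), including Itgax at 2.04, 4.06 and 5.90 CPM against 28.7 and 17.8, and 2 were higher (13.7% of all genes). The higher ones were Zbtb46, at 14.7, 13.9 and 24.6 CPM against 2.86 and 4.59, and Cd209a, at 0.896, 2.60 and 2.65 CPM against 0.0537 and 0.0406. The 6 B cell markers summed to 3.77 to 6.99 CPM in dFLEx, 4.62 in 3800 and 44.5 in 3802, so that 1 KP tumor stood apart. Cd79a, part of the B cell receptor complex, was at 1.55 to 2.03 CPM in dFLEx, 0.322 in 3800 and 15 in 3802. The 7 T cell markers likewise summed to 12.9 to 20.8 CPM in dFLEx, 16.7 in 3800 and 61.4 in 3802.

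Markers of endothelial cells, and of fibroblasts with their collagens, summed to more in the dFLEx tumors. The 6 endothelial markers summed to 196 to 510 CPM in dFLEx and to 131 and 79.9 CPM in KP, and the 6 fibroblast markers to 3018 to 9814 CPM in dFLEx and to 2787 and 1424 CPM in KP. Of these, 2 of 6 and 3 of 6 were higher in every dFLEx tumor, against 13.7% of all genes. The paper's single-nucleus data also placed Pecam1, Erg and Cdh5 in a subcluster of dFLEx tumor cells. Endothelial cells and such tumor cells cannot be told apart in the endothelial sum. Without the collagens Col1a1 and Col3a1, a choice made after the data were seen, the fibroblast sum was 647, 600.1 and 452 CPM in dFLEx and 158 and 680.0 CPM in KP, so that KP tumor 3802 was the highest. No marker of these 7 lists was at 0 in a tumor, and 0 passed the adjusted threshold in edgeR. There 1 to 6 genes of each list had an unadjusted p under 0.05, against 10.6% of all genes. DESeq2 called Fcgr1, Itgax, Zbtb46, Cd209a, Pax5, Cd3d and Pecam1, against 6.25% of all genes tested in that fit. Called by limma-voom were Ptprc, Adgre1, C1qb, C1qc, Fcgr1, Itgax and Pecam1, against 2.78% of all genes tested in that fit. The part of the cell mixture in the class II levels was not tested.

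**Figure D4:**
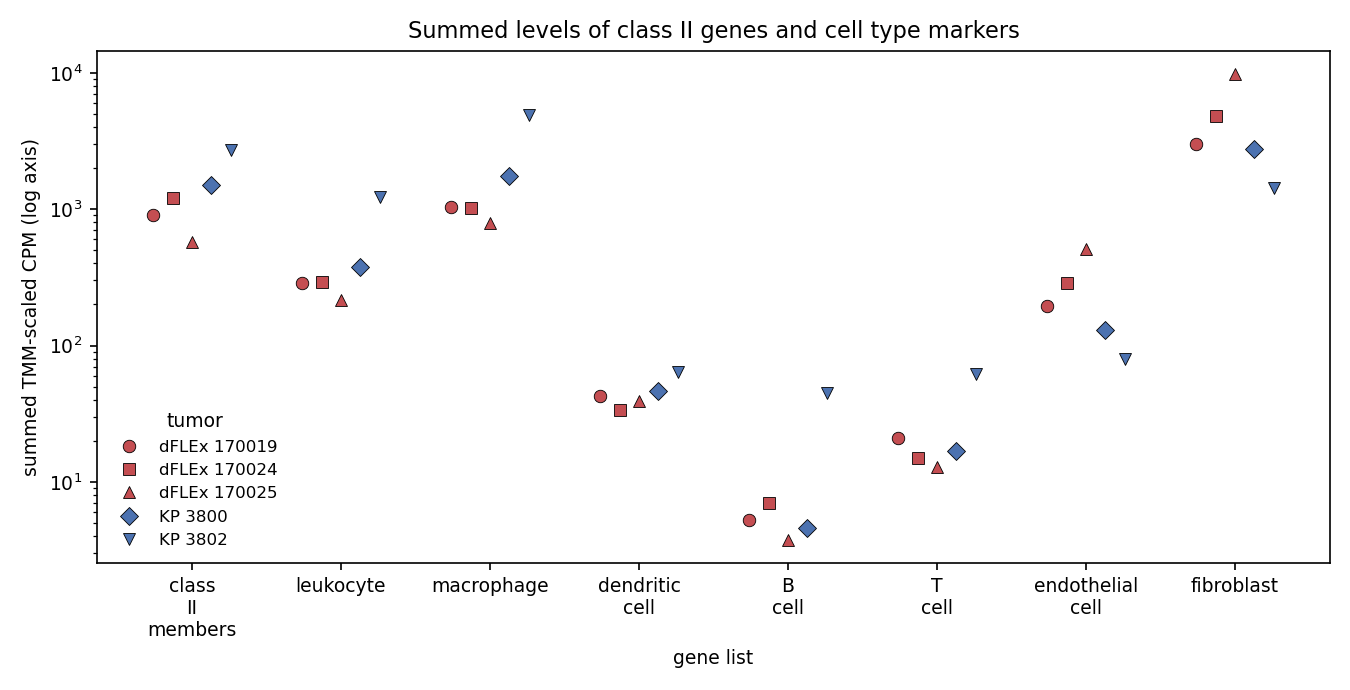
Summed level of the 8 class II genes and of each list of cell type markers in each tumor (summed TMM-scaled CPM, log axis), with 1 point per tumor, dFLEx in red and KP in blue. Class II, leukocyte, macrophage and dendritic cell sums lie lower in all 3 dFLEx tumors, endothelial and fibroblast sums lie higher (the latter with its collagens), and B cell and T cell sums set KP tumor 3802 apart.

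Set against these markers within each tumor, the summed class II level overlapped between the groups in all 4 ratios. The sum of the 8 members over the leukocyte sum was 3.13, 4.11 and 2.65 in the dFLEx tumors and 4.03 and 2.21 in the KP tumors, with overlapping groups and a log2 difference of 0.12 (exact permutation p = 0.8), which was 0.55 without 3800, -0.31 without 3802 and -0.05 without 170024. Over the macrophage sum it was 0.872, 1.17 and 0.725 in dFLEx and 0.869 and 0.556 in KP, a log2 difference of 0.38 (exact permutation p = 0.4), which was 0.70 without 3800, 0.06 without 3802 and 0.19 without 170024. It was 0.02 with C1qa left out of the list, a choice made after the data were seen. Over the dendritic cell sum it was 21.4, 35.7 and 14.6 in dFLEx and 32.7 and 43.0 in KP, a log2 difference of -0.75 (exact permutation p = 0.4). With 1 tumor left out, this difference ran from -1.09 without 170024 to -0.44 without 170025. The dendritic cell sum rests on different genes in different tumors. Zbtb46 gave 24.6 of its 39.2 CPM in 170025, and Itgax gave 28.7 of its 46.3 CPM in 3800. Over the B cell sum the class II level ran from 61.5 in 3802 to 328 in 3800, so the KP tumors bracketed the dFLEx tumors. The log2 difference of 0.22 was 1.43 without 3800 and -0.99 without 3802. None of these 4 ratios had an adjusted p below 0.88.

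Over the 5 tumors, the 10 genes whose profile was most like that of H2-Aa, H2-Ab1, H2-Eb1 and Cd74 were Klf2, Pnck, Ccdc30, Gxylt2, Smim30, Col7a1, Gm40841, Hdgf, Casq2 and Tmsb4x. Likeness was the root mean square difference of centred log2 levels among the 15257 tested genes that averaged 1 CPM or more. Klf2, a transcription factor of endothelial cells and lymphocytes, was the nearest at 0.125 and stood at 38.6, 55.2 and 31.7 CPM in the dFLEx tumors and 74.8 and 120 CPM in the KP tumors. Tmsb4x, thymosin beta 4, was the tenth at 0.183, with 912, 946 and 527 CPM against 1095.5 and 2228.5. Of the members outside the reference profile, H2-DMa was as near as these at 0.128, whereas H2-DMb1, H2-Oa and Ciita lay at 0.395, 0.532 and 0.609. With a pseudocount of 2 CPM in place of 0.5, 7 of the 10 genes were the same. With 5 tumors such a ranking is a description, since a profile of so few points leaves many genes close to it.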

How the data were processed

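The deposited table held raw counts per gene, which the authors made, per the file header, with featureCounts (Subread 2.0.3) from alignments to a mouse genome with the construct added. The submitters' processing notes name Trimmomatic 0.39, STAR 2.7.10a and mm39. Counting ignored strand, left out reads with several alignments or over several genes, and counted both mates of a pair, so the counts overstate the number of fragments. It held 9 of the 10 labelled libraries, and no column was left unused. Symbols came from GENCODE M39 (56017 of 56750 features).

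Counts were summed per tumor, since duplicates split 1 RNA, and compared with edgeR 4.0.16 (filterByExpr, TMM, glmQLFit and glmQLFTest, Benjamini-Hochberg adjustment over all 24743 genes, threshold 0.05). The SE is the size of the log2 fold change over the root of F. Log2 fold changes are dFLEx minus KP. DESeq2 1.42.0, which the study's methods name, and limma 3.58.1 served as alternatives. Within-tumor ratios were compared with an exact two-sided permutation test (SciPy 1.17.1). The edgeR step was tested on simulated data with log2 fold changes far larger than those of the members. That test does not show whether changes of the members' size would be detected. Nothing states whether tumors came from separate litters or days, so p-values measure the spread between these tumors.

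The members, the gene lists and the tests were chosen with earlier results of these data known. Named from each pathway list are genes whose groups do not overlap, those with the lowest and highest log2 fold change, and any with an adjusted p under 0.05. The cell type marker lists did not follow this rule, and their examples were chosen after their values were seen. 1 gene of a list and part of a genotype are not reported here.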

Additional observations from a re-analysis of the deposited data

How the results depend on the processing

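With 5 tumors, of which 3802 has 1 library, the tests detect only large differences, and low counts limit H2-Oa and H2-Ea. Over 16 alternatives and 127 member log2 fold changes, 126 were negative and 7 newly passed the threshold; H2-Oa, with 1 tumor left out, ran from -0.88 to 0.16, the latter without 3802. No member was called except with the 9 libraries as independent samples, by edgeR (3 members) or DESeq2 (4 members, H2-Aa being added). The duplicate number only names the libraries of a tumor and pairs no tumors. With that number as a replicate block, 0 members were called and their median was -1.14, while calls over all genes went from 3344 to 2476. The members' median ran from -1.58 with library totals to -1.10 with no filter on low counts, and from -1.52 to -0.75 with 1 tumor left out. Relative to the median of all genes it ran from -1.47 to -0.73. Library totals moved all genes by 0.30 on the log2 scale and made 7 members lower in every dFLEx tumor. Leaving out a tumor cannot lower such a count, so it is no check on it.

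Calls over all genes were 45 on tumor sums by edgeR, 1396 by DESeq2 on the same sums, 543 by limma-voom with tumor as a random effect, 4828 by DESeq2 on 9 libraries, 880 with no filter, 80 with a mean of at least 1 CPM (H2-Oa was then not tested), and 49, 34, 50 and 67 with DESeq2 size factors, library totals, upper quartile and the first library of each tumor. With 1 tumor left out they ran from 0 to 414, the highest without 3802.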
